A study of Saccharomyces cerevisiae with 6 samples.

Results

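The transcripts of 38 genes of the budding yeast Saccharomyces cerevisiae that serve the reading of mRNA were followed in wild-type and snf2Δ cells. They were taken by name from the 7127 features of the deposited count table: the 21 genes of cytosolic aminoacyl-tRNA synthetases, and 17 genes of translation factors, namely 8 of initiation, 8 of elongation and PAB1, the poly(A)-binding protein. All 38 matched a gene of that role in the RefSeq annotation, and all 38 passed the filter on low counts. Poly(A)-selected RNA was sequenced from 3 wild-type and 3 snf2Δ samples of the strain HHY221, taken in log phase (OD600 about 0.4–0.8) from the rich medium YPD at 30 °C without rapamycin. Snf2 is the motor subunit of the nucleosome remodeler Swi-Snf, and the question put to the data is how the transcripts of the translation machinery stood when it was missing. The study's strain list gives HHY221 as a MATa strain of the W303 background with TOR1-1, a deletion of FPR1 and RPL13A fused to FKBP12, alleles of the anchor-away system that the controls carry too, and lists the deletion as snf2Δ::natMX6 in that background. TOR1-1 makes the TORC1 kinase, a main regulator of translation genes, insensitive to rapamycin, so neither genotype is an unmodified yeast in this respect. The labels do not say whether the 3 samples of a genotype came from separate cultures or from separate clones. The p-values therefore measure only the spread between these samples, which may be technical.

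Library totals ran from 4134546 to 6708036 counts, and the level that 3 counts stand for, used as the floor, was 0.481 to 0.746 CPM (the reads of a gene relative to the TMM-scaled size of its library). That floor covers counting error only, and the members lay far above it: the smallest count of any of them in any library was 344. For SNF2 itself, 363, 298 and 365 reads were counted in wild type and 6, 9 and 7 in snf2Δ, as the labels require. Transcripts of a-cells (MFA1, STE2 and BAR1) were present in every library of both genotypes, whereas those of α-cells, MF(ALPHA)1 and STE3, stayed at 0 to 3 and 4 to 15 counts. The third wild-type library was the deepest and stood apart from the other 2 on the second principal component, which held 9.98% of the variance against 76.5% on the first, where the genotypes separated. Calls that changed when this library was left out are given below with both values. Levels are relative to all other transcripts of a library, so fewer cells expressing a gene and less of its RNA per cell cannot be told apart, nor can a change of the total RNA per cell be seen.

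As background, an aminoacyl-tRNA synthetase joins 1 amino acid to its tRNAs, and the ribosome reads the charged tRNA without checking the amino acid again. The enzymes fall into structural classes, I and II, with unrelated catalytic folds. Initiation factors bring the small ribosomal subunit and the initiator methionyl-tRNA to an mRNA: eIF4E binds the cap, eIF4G holds eIF4E, the helicase eIF4A and the poly(A)-binding protein together, and eIF2 carries the initiator tRNA with GTP. Elongation factor eEF1A then delivers each charged tRNA, eEF1B recharges eEF1A with GTP, eEF2 moves the ribosome by a codon, and eEF3 is an ATPase found in fungi. When amino acids run short, uncharged tRNA activates the kinase Gcn2, which phosphorylates eIF2. General initiation then falls while translation of the activator Gcn4 rises, and Gcn4 binds the letters TGACTC in promoters of amino acid enzymes and of some synthetases.

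The TGACTC letters divide the synthetase genes into groups of similar size, and they are shown here because both a gene that rose and genes that fell in snf2Δ carry them. In the window from 250 bases before to 50 bases after the start codon, 9 of the 21 synthetase genes (42.9%) held TGACTC on either strand, 0 of the 17 factor genes did, and 7.98% of 6001 promoters of the same length did in the genome as a whole. The sequences are from the R64 RefSeq assembly, written 5′ to 3′ on the strand of the gene, with the match in capitals and 12 bases on each side. GAGTCA is the match read on the other strand.
KRS1 (lysine), chrIV:525294-525323, plus strand: tgaatgatgaaaTGACTCttaatgaacttc
YHR020W (proline), chrVIII:143802-143831, plus strand: taagcgatgcttGAGTCActgaatgtcttg
ILS1 (isoleucine), chrII:84346-84375, minus strand: tcgaaacaatgaTGACTCttaagcatgaaa
ALA1 (alanine), chrXV:949139-949168, minus strand: gattaaggaactTGACTCtttctttcaaga
YDR341C (arginine), chrIV:1153809-1153838, minus strand: aaagtgtctaatGAGTCAgttatttctttc
VAS1 (valine), chrVII:672076-672105, plus strand: atttttttagaaGAGTCAcccatacagcct
THS1 (threonine), chrIX:212283-212312, plus strand: ttactgtttaaaTGACTCttaccttgtgat
GLN4 (glutamine), chrXV:649310-649339, plus strand: ctgtagaagaatTGACTCagctgttttcac
CRS1 (cysteine), chrXIV:182777-182806, plus strand: tttcatcgcgaaGAGTCAaaagacattatc
Counted from the first base of the start codon, taken as 0, the match began at −47 in ALA1, −86 in CRS1, −98 in VAS1, −102 in ILS1, −134 in KRS1, −182 in YHR020W, −200 in YDR341C and −204 in THS1. In GLN4 it began at 19, inside the coding sequence. These are matches of letters, which do not show that a protein binds there.

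Transcripts of the translation machinery shifted in both directions in snf2Δ, by sizes close to those of genes in general. Of the 38 genes, 4 rose and 8 fell, and the other 26 did not pass the test (edgeR quasi-likelihood, Benjamini-Hochberg adjusted p under 0.05 over all genes tested). CAM1 and TEF4, which encode the γ subunit of eEF1B, rose with HTS1 and KRS1, the synthetases of histidine and lysine. EFB1 (the α subunit of eEF1B), both eIF4G genes, the eIF2γ gene GCD11 and the synthetases of methionine, cysteine, glycine and glutamine fell. In all, 34.4% of the 5641 genes tested passed, 16.6% rising and 17.8% falling. The members' shares, 10.5% rising and 21.1% falling, are to be read against these. With upper-quartile scaling the split over all genes was 1204 rising and 808 falling rather than 938 and 1003. The largest log2 fold change among the members was 0.71 in CAM1 and the smallest −0.66 in EFB1. The study's methods set a stricter cutoff, which also asks for a log2 fold change above 2 in size. Of all genes, 2.82% met it here, a share too small to set 38 genes apart, and 0 of the 38 did. With the sign ignored, the median size of the change was 0.29 over the members and 0.32 over all genes tested. The median was −0.13 over the members and −0.02 over all genes tested. The levels of the genotypes did not overlap in 15 of the 38 genes, against 46.6% of all genes.

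**Figure D1:**
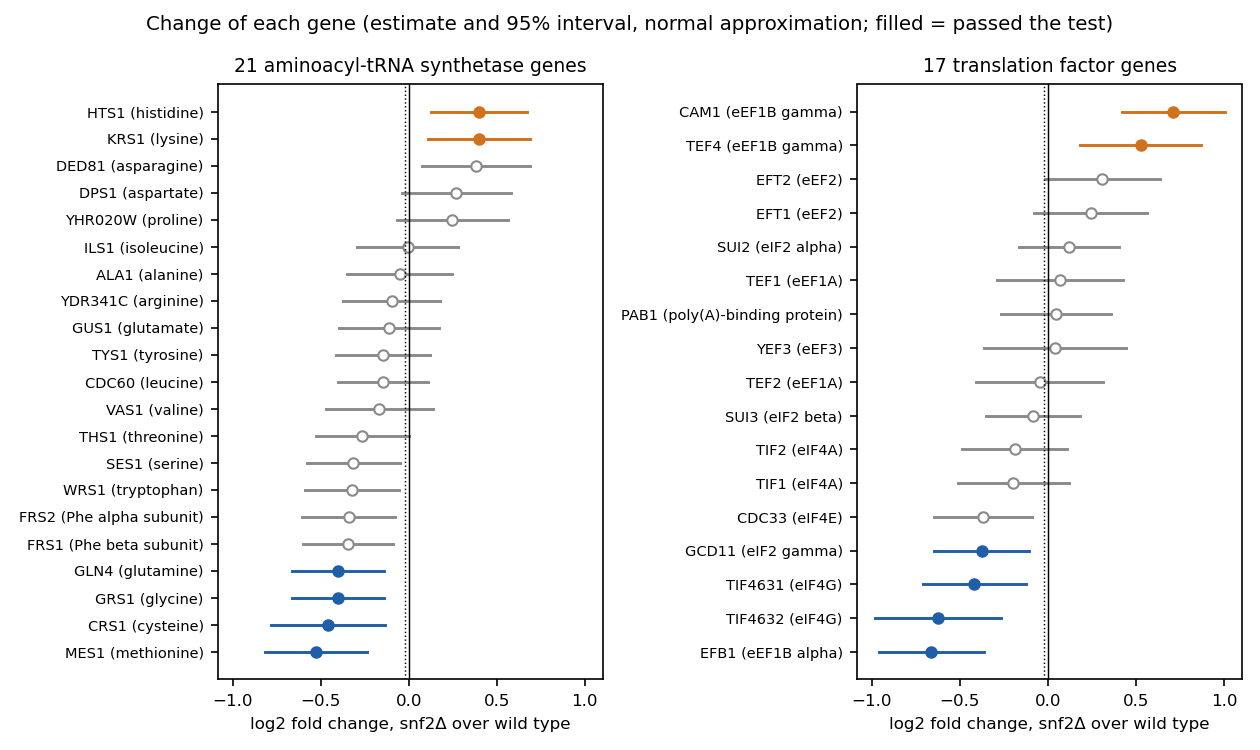
Log2 fold change of snf2Δ over wild type (x axis) for the 21 synthetase genes (left) and the 17 factor genes (right), with bars for the 95% interval (normal approximation). Filled points passed the test (orange rose, blue fell), open points did not, and the dotted line is the median of all genes tested at −0.02. Most points lie within 0.4 of 0, and the 3 genes of eEF1B hold both ends of the right panel.

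Summed over the group, the share of the transcriptome overlapped between the genotypes. The 38 genes took 3.77% to 3.95% of the counts of the wild-type libraries and 3.61% to 4.13% of those of the snf2Δ libraries. The synthetases summed to 12892 ± 620 CPM in wild type against 12454 ± 1267 CPM in snf2Δ (SD, n = 3 each), a ratio of 0.966. The factors summed to 25780 ± 2857 CPM and 25938 ± 3104 CPM, a ratio of 1.01. Both differences are smaller than the spread between libraries. Per kilobase of coding sequence in wild type, single members as counted ranged from 47.5 CPM for TIF4632, near the middle of all genes (percentile 48.8), to 3753 CPM for EFB1 (percentile 99.0). The synthetases ranged from 121 CPM for CDC60 to 661 CPM for KRS1. Levels of near-identical copies, such as TEF1 and TEF2, depend on how shared reads were counted, so their rank is uncertain.

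Among the synthetases, the 2 that charge the sulfur amino acids, whose synthesis the study followed, had the lowest log2 fold changes in the fit as reported. Positions are of the R64 assembly. MES1 (YGR264C, chrVII:1019598-1021853) charges both the initiator and the elongator methionine tRNA. Its level was 529, 534 and 673 CPM in the 3 wild-type libraries and 400, 357 and 448 CPM in the snf2Δ libraries, in replicate order here and below. The groups did not overlap, and the transcript fell to 69.4% of the wild-type mean (log2 fold change −0.53 ± 0.15, SE, adjusted p = 0.0115). With an offset for GC content and gene length the adjusted p was 0.069, and it was 0.0729 without snf2Δ replicate 2. CRS1 (YNL247W, chrXIV:182875-185178), the cysteinyl-tRNA synthetase, which also supplies mitochondria, had 297, 307 and 246 CPM in wild type against 192, 165 and 261 CPM in snf2Δ. The highest snf2Δ library lay above the lowest wild-type library. CRS1 fell in the test (−0.46 ± 0.17, adjusted p = 0.042), but the call was lost under 9 of 17 alternatives, among them scaling by total counts (0.0536) and leaving out snf2Δ replicate 2 (−0.32, 0.211). CRS1 was no longer among the lowest 2 in that fit, where GRS1 and GLN4 (both −0.39) lay below it. Nor was it with the GC and length offset, where FRS2 (−0.35) lay below it (−0.28). The same held with that offset and a block for replicate number together (FRS2 −0.35, CRS1 −0.30). It also held without wild-type replicate 2 (GRS1 −0.45, CRS1 −0.40).

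GRS1 (YBR121C, chrII:481364-483367), the glycyl-tRNA synthetase of both cytosol and mitochondria, and GLN4 (YOR168W, chrXV:649303-651732), which charges glutamine, fell by similar amounts. GRS1 had 764, 724 and 827 CPM in wild type against 560, 572 and 620.0 CPM in snf2Δ (log2 fold change −0.40 ± 0.13, adjusted p = 0.0293). GLN4 had 364, 367 and 306 CPM against 248, 257 and 281 CPM (−0.40 ± 0.13, adjusted p = 0.0289). In both, every snf2Δ library lay below every wild-type library. Neither call held with the GC and length offset (adjusted p = 0.149 and 0.143), and each was lost when single libraries were left out, at the most 0.104 for GRS1 without snf2Δ replicate 2 and 0.12 for GLN4 without wild-type replicate 1.

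In the other direction, HTS1 (YPR033C, chrXVI:637379-639019), whose gene makes the histidyl-tRNA synthetase of both cytosol and mitochondria, had 396, 402 and 482 CPM in wild type against 522, 555 and 614 CPM in snf2Δ. KRS1 (YDR037W, chrIV:525440-527215), the cytosolic lysyl-tRNA synthetase and the most abundant synthetase transcript per kilobase, had 1113, 1152 and 1257 CPM against 1468, 1433 and 1741 CPM. Neither gene overlapped between genotypes, and both rose by 0.40 on the log2 scale (SE 0.14 and 0.15, adjusted p = 0.0357 and 0.0485). Both calls lie close to the threshold: leaving out wild-type replicate 1, for example, gave 0.163 for HTS1 and 0.193 for KRS1. DED81, which charges asparagine, was next in size, with 778, 689 and 928 CPM in wild type against 896, 1094 and 1129 CPM in snf2Δ. Its libraries overlapped, and its log2 fold change of 0.38 ± 0.16 did not pass (adjusted p = 0.0705), although it did under 7 of 17 alternatives, among them without wild-type replicate 3 (0.50, adjusted p = 0.00876).

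The other 14 synthetases did not pass either. FRS1 and FRS2, the β and α subunits of the phenylalanine enzyme, both had a log2 fold change of −0.34 (SE 0.13 and 0.14, adjusted p = 0.0533 and 0.0626), and neither overlapped between genotypes: FRS1 lay at 644 to 725 CPM in wild type against 522 to 554 CPM in snf2Δ, FRS2 at 444 to 502 CPM and 340.1 to 415 CPM. SES1 (serine, −0.31), WRS1 (tryptophan, −0.32) and THS1 (threonine, −0.26) also had every snf2Δ library below every wild-type library without passing (adjusted p = 0.0854, 0.0809 and 0.145). THS1 was the steadiest of these in wild type, at 861, 859 and 872 CPM, against 664, 709 and 786 CPM in snf2Δ. Without wild-type replicate 3, FRS1 (−0.30, adjusted p = 0.0473), SES1 (−0.37, 0.0232) and YHR020W (proline, 0.41, 0.0233) passed. In the fit of all libraries the remaining values were −0.17 for VAS1 (valine), −0.15 for CDC60 (leucine), −0.15 for TYS1 (tyrosine), −0.11 for GUS1 (glutamate), −0.10 for YDR341C (arginine), −0.05 for ALA1 (alanine), −0.004 for ILS1 (isoleucine), 0.25 for YHR020W and 0.27 for DPS1 (aspartate). Their standard errors lay between 0.13 and 0.16, and the smallest change that passed among the 38 genes was 0.38 in size. That size is not a limit of detection, because passing also depends on the spread of each gene between libraries. The values listed here do not show that these genes were unchanged.

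Over the 21 synthetases the median log2 fold change was −0.15, with 16 values below 0. Class I held 3 of the 4 that fell (MES1, CRS1 and GLN4) among its 10 members. That share, 30%, stands beside 17.8% of all genes. Of the 5641 genes tested, 2928 had values below 0 in the fit as reported. All 10 values of class I did, from −0.53 to −0.004. The GC and length offset turned 5 of those 10 (CDC60, GUS1, ILS1, VAS1 and YDR341C) to values between 0.03 and 0.18 and brought the median of all synthetases to 0.03. Class I genes are long, with a median coding length of 2280 bases against 1776 in class II and 1254 over all genes. The offset takes GC content and length together, and the part of either in these values was not tested. Class II held both that rose and GRS1, which fell, among 11 members, with a median of −0.05. Its shares, 18.2% rising and 9.09% falling, stand beside 16.6% and 17.8% of all genes. The 5 genes known to make the mitochondrial enzyme as well (ALA1, GRS1, HTS1, VAS1 and CRS1) included 1 that rose and 2 that fell. In so few genes these shares, 20% and 40%, stand beside 16.6% and 17.8% of all genes. No difference between these subsets was tested. The synthetase calls also moved with single libraries: 4 rose and 6 fell without wild-type replicate 3, while without snf2Δ replicate 2 none passed in edgeR (2 rising and 3 falling at an unadjusted p under 0.05), against 685 rising and 730 falling genes overall in that fit.

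**Figure D2:**
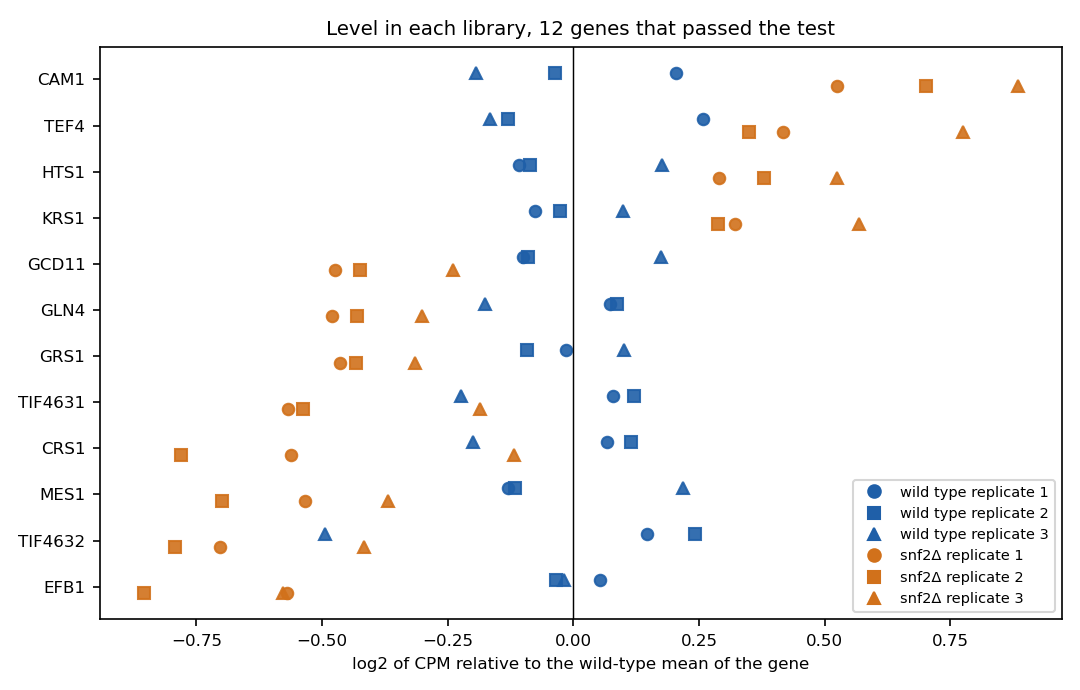
Level of the 12 genes that passed the test in each of the 6 libraries, as log2 of CPM relative to the gene's wild-type mean (x axis; blue wild type, orange snf2Δ, symbols for replicate numbers). The colours are separate in 9 genes, and in TIF4631, TIF4632 and CRS1 the third wild-type library lies among the snf2Δ points or just below the highest of them.

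Initiation factor transcripts held 3 of the falls, in 8 genes with a median log2 fold change of −0.28. TIF4631 (YGR162W, chrVII:824059-826917) and TIF4632 (YGL049C, chrVII:406860-409604) encode the forms of eIF4G, the scaffold of the cap-binding complex. TIF4631 had 443, 456 and 359 CPM in wild type against 283, 289 and 369 CPM in snf2Δ (−0.42 ± 0.15, adjusted p = 0.0403). TIF4632, the less abundant form, had 144, 154 and 92.7 CPM against 80.1, 75.3 and 97.7 CPM (−0.63 ± 0.18, adjusted p = 0.0148). In both genes the third wild-type library was low and the third snf2Δ library high, so that these 2 libraries overlapped. Without wild-type replicate 3 the fall was larger in both (−0.52 and −0.83). The call was lost in both without any one of the other wild-type libraries or without snf2Δ replicate 1 or 2, at adjusted p-values up to 0.156 for TIF4631 and 0.0774 for TIF4632. It was also lost with the GC and length offset (−0.23, adjusted p = 0.184 for TIF4631 and −0.42, 0.0622 for TIF4632), and for TIF4631 with upper-quartile scaling (0.0835) and DESeq2 size factors (0.0544). The ratio of TIF4631 to TIF4632 counts was 3.30 ± 0.50 in wild type and 3.71 ± 0.16 in snf2Δ (SD, n = 3 each, 2-sided exact permutation test, p = 0.4), and the smallest p that 3 against 3 libraries allow is 0.1.

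The other parts of the cap-binding complex did not pass. CDC33 (YOL139C), the gene of eIF4E, had 675, 673 and 800.0 CPM in wild type against 611, 553 and 501 CPM in snf2Δ, with no overlap (−0.37 ± 0.14, adjusted p = 0.0551), and it passed under 4 of 17 alternatives. TIF1 and TIF2, which both encode eIF4A, gave −0.20 ± 0.16 and −0.19 ± 0.15 with adjusted p-values of 0.369 and 0.362, and without wild-type replicate 3 the values were 0.0037 and −0.03. PAB1 (YER165W) had 1514, 1294 and 1208 CPM against 1316, 1219.8 and 1615 CPM and a log2 fold change of 0.05 ± 0.16 (adjusted p = 0.845). Its sign turned without wild-type replicate 3 and without snf2Δ replicate 3. The 95% interval of the PAB1 value (normal approximation) runs from −0.27 to 0.36.

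The subunit genes of eIF2 had unequal values. GCD11 (YER025W, chrV:205251-206834), the γ subunit that binds GTP and the initiator tRNA, had 477, 479.7 and 576 CPM in wild type against 368, 380.5 and 433 CPM in snf2Δ, without overlap (−0.38 ± 0.14, adjusted p = 0.046). SUI2, the α subunit that Gcn2 phosphorylates, had 346, 313 and 292 CPM against 361, 285 and 387 CPM, and SUI3, the β subunit, 465, 454 and 527 CPM against 459, 498 and 407 CPM. The genotypes overlapped in SUI2 (0.12 ± 0.14, adjusted p = 0.562) and in SUI3 (−0.08 ± 0.14, adjusted p = 0.667). The GCD11 call was the least stable of the 12: it was lost under 13 of 17 alternatives, including no filter on low counts (0.0564), limma-voom (0.0556) and leaving out wild-type replicate 3 (−0.28, 0.0682). Differences between the subunits were not tested.

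The clearest changes among the 38 genes were those of EFB1 and CAM1, which encode subunits of eEF1B, the factor that exchanges GDP for GTP on eEF1A. EFB1 (YAL003W, chrI:142174-143160) encodes the catalytic α subunit of eEF1B, and TEF4 (YKL081W, chrXI:282891-284455) and CAM1 (YPL048W, chrXVI:464401-465648) encode alternative forms of the γ subunit. EFB1 had 2417, 2276 and 2300.0 CPM in wild type against 1570.0, 1289 and 1562 CPM in snf2Δ. TEF4 had 1909.5, 1459 and 1425 CPM against 2133, 2037 and 2735 CPM. CAM1 had 382, 323 and 289.7 CPM against 477, 539 and 613 CPM. The genotypes did not overlap in any of the 3 genes: EFB1 fell to 63.2% of the wild-type mean, while TEF4 rose to 144% and CAM1 to 164%. The log2 fold changes were −0.66 ± 0.15 for EFB1 (adjusted p = 0.00342), 0.53 ± 0.17 for TEF4 (adjusted p = 0.0291) and 0.71 ± 0.15 for CAM1 (adjusted p = 0.00166). EFB1 and CAM1 were the only members that passed under all 17 alternatives, at −0.83 to −0.57 and 0.56 to 0.82. The TEF4 call was lost without wild-type replicate 2 (adjusted p = 0.102) or snf2Δ replicate 3 (0.146).

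**Figure D3:**
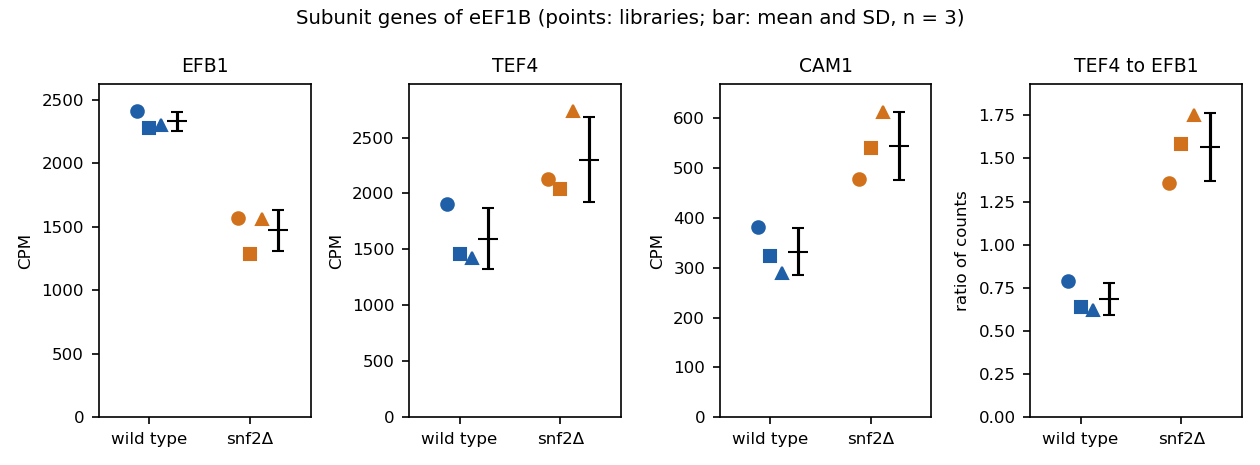
CPM of EFB1, TEF4 and CAM1 and the ratio of TEF4 to EFB1 counts (y axes, from 0) in each library of wild type (blue) and snf2Δ (orange), with the mean and SD of 3 libraries in black. EFB1 is lower and the other 2 genes and the ratio are higher in all 3 snf2Δ libraries.

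The opposite movement shifted the proportions of these transcripts in every library. Counts of TEF4 relative to EFB1 were 0.790, 0.641 and 0.619 in wild type and 1.36, 1.58 and 1.75 in snf2Δ, and counts of CAM1 relative to EFB1 were 0.158, 0.142 and 0.126 against 0.304, 0.418 and 0.392. These ratios were chosen after the values were seen and carry no test. TEF4 relative to CAM1 was 4.81 ± 0.26 in wild type and 4.24 ± 0.40 in snf2Δ (2-sided exact permutation test, p = 0.1, the smallest that 3 against 3 libraries allow, 0.167 after Benjamini-Hochberg adjustment over 5 pairs). TEF4 and CAM1 align at 78.2% identity over 58.0% and 57.6% of their coding sequence and share no stretch of 75 bases, the read length. TEF4 and EFB1 each hold a snoRNA gene within their bounds on the same strand, SNR38 and SNR18. Both genes span more bases than their coding sequence, which is 1239 bases in TEF4 and 621 in EFB1. Reads of a snoRNA would enter the count of its gene only if bases outside the coding sequence were counted. Whether they were is not stated in the sources used here, nor whether such reads were present after poly(A) selection.

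The genes of eEF1A, eEF2 and eEF3 did not pass. TEF1 and TEF2 encode the same protein, eEF1A, and gave 0.07 ± 0.18 and −0.05 ± 0.18 (adjusted p = 0.801 and 0.868), signs that turned when single libraries were left out. Their coding sequences differ at 2 of 1377 bases, and 88.7% of 75-base windows are shared, so most reads cannot be assigned to either, and the sum is the safer quantity. It was 6074, 5851 and 7512 CPM in wild type against 5192, 7237 and 7107 CPM in snf2Δ, overlapping ranges (2-sided exact permutation test on the sums, p = 1). The same holds for EFT1 and EFT2, the eEF2 genes, which differ at 4 of 2529 bases: their sums were 1826, 1742 and 2362 CPM against 2027, 2623 and 2591 CPM (p = 0.2, exact permutation). Single values were 0.24 ± 0.16 for EFT1 and 0.31 ± 0.17 for EFT2 (adjusted p = 0.269 and 0.165). Both passed without wild-type replicate 3, which was the highest wild-type library for each, with 0.39 for EFT1 and 0.45 for EFT2.

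TIF1 and TIF2 differ at 6 of 1188 bases and summed to 1497, 1383 and 1999 CPM in wild type against 1431, 1408 and 1435 CPM in snf2Δ (2-sided exact permutation test, p = 0.4). The third wild-type library was the highest of all 6, and the other 2 wild-type libraries lay on either side of the snf2Δ range. The count ratios within these pairs were 0.854 ± 0.037 and 0.931 ± 0.028 for TEF1 to TEF2, 0.483 ± 0.0042 and 0.460 ± 0.015 for EFT1 to EFT2, and 0.669 ± 0.039 and 0.670 ± 0.018 for TIF1 to TIF2, wild type first (SD, n = 3). In the first 2 pairs the genotypes did not overlap (exact permutation p = 0.1 each, 0.167 after adjustment), but the sources used here do not state how reads that match both copies were counted. YEF3, the gene of eEF3, had the highest level of any single gene of the set as counted, before division by length. Its levels were 7016, 6409 and 9146 CPM in wild type against 6502, 7556 and 9163 CPM in snf2Δ (0.04 ± 0.21, adjusted p = 0.90). The spread between libraries of either genotype was far larger than the difference.

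Related genes outside the set give the setting. Of the 14 synthetases that act only in mitochondria, 3 fell and 11 did not pass, with a median of −0.34 and 12 values below 0. The share that fell, 21.4%, stands beside 17.8% of all genes. MSK1 (lysine) had 86.8, 93.1 and 80.8 CPM in wild type against 39.8, 53.2 and 43.3 CPM in snf2Δ (−0.93 ± 0.15, adjusted p = 0.000213), while its cytosolic counterpart KRS1 rose. MSD1 (aspartate, −0.68 ± 0.17, adjusted p = 0.00562) and MSM1 (methionine, −0.59 ± 0.15, adjusted p = 0.0078) fell too, the latter in the same direction as MES1. ARC1, a cofactor that binds MES1 and GUS1 in the cytosol, gave −0.20 ± 0.14 and GRS2, a second glycyl-tRNA synthetase gene, 0.22 ± 0.19, and neither passed (adjusted p = 0.279 and 0.397).

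Among 15 other genes of initiation, 6 fell and 9 did not pass, with a median of −0.35 and 14 values below 0. TIF3, the gene of eIF4B, which assists eIF4A, had 707, 731 and 714 CPM in wild type against 459, 448 and 488 CPM in snf2Δ (−0.63 ± 0.13, adjusted p = 0.00153). RPG1, the largest subunit of eIF3, had 590.0, 626 and 504 CPM against 357, 337 and 435 CPM (−0.61 ± 0.15, adjusted p = 0.00456). TIF35, another eIF3 subunit, had 378, 418 and 339 CPM against 299, 259 and 239.7 CPM (−0.51 ± 0.14, adjusted p = 0.0106). None of these 3 genes overlapped between genotypes, and TIF5, FUN12 and CAF20, the genes of eIF5, eIF5B and an eIF4E-binding protein, also fell. The share that fell, 40% of this list and 37.5% of the 8 initiation factors above, stands beside 17.8% of all genes and was not tested as a list. The calls among those 8 (TIF4631, TIF4632 and GCD11) were each lost with the GC and length offset.

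eIF2B recharges eIF2 with GTP, and its 5 subunit genes moved in both directions. GCD7 (β subunit) rose from 125, 108 and 115 CPM to 155, 138 and 157 CPM (0.37 ± 0.13, adjusted p = 0.0412), and GCD1 (γ subunit) fell from 234, 230.2 and 294 CPM to 173, 170.1 and 207 CPM (−0.47 ± 0.14, adjusted p = 0.0202). GCN3, GCD2 and GCD6 gave −0.11, −0.33 and −0.10 and did not pass. The shares of eIF2B genes that rose and fell, 20% each, stand beside 16.6% and 17.8% of all genes. Of 8 other genes of elongation, termination and recycling, 3 rose (37.5%, beside 16.6% of all genes) and 5 did not pass. Neither list was tested as a list. HYP2, the gene of the eIF5A made in the presence of oxygen, had 2896, 2433 and 3935 CPM in wild type against 3785, 5327 and 4807 CPM in snf2Δ, with overlap between the genotypes (0.59 ± 0.20, adjusted p = 0.0365). ANB1, its hypoxic copy, with which it may share reads, rose from 16, 19 and 19 counts to 339, 69 and 21 counts (3.27 ± 0.74, adjusted p = 0.00303), a change carried mostly by the first snf2Δ library. HEF3, a copy of YEF3 that is scarcely expressed, rose from 66, 59 and 61 counts to 75, 120 and 74 counts (0.82 ± 0.22, adjusted p = 0.00971).

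In the Gcn pathway, which couples charging of tRNA to initiation, 2 of 5 genes rose (40%, beside 16.6% of all genes). GCN4 transcript was at 1720.5, 1577 and 2021 CPM in wild type against 2608, 2730.2 and 2554 CPM in snf2Δ, without overlap (0.57 ± 0.16, adjusted p = 0.0109). YIH1, whose product restrains Gcn2 activation, was at 89.0, 77.8 and 97.5 CPM against 141, 159.6 and 182 CPM (0.87 ± 0.14, adjusted p = 0.000271). GCN2, GCN1 and GCN20 gave 0.20, 0.04 and −0.09 and did not pass (adjusted p = 0.31, 0.853 and 0.653). Gcn4 is controlled mainly at translation, which transcript counts do not measure.

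Set beside these values, both the synthetases with the TGACTC letters and those without them held genes that rose and genes that fell. Of the 9 with a match, KRS1 rose, GLN4 and CRS1 fell, and 6 did not pass, with a median of −0.10. Of the 12 without, HTS1 rose, GRS1 and MES1 fell, and 9 did not pass, with a median of −0.23. This split depends on the window. DED81, counted without, is the neighbour of YHR020W, whose match lies just beyond the end of the DED81 window (chrVIII:143509-143808). Over all genes tested, 28.9% of the 456 with TGACTC in the same window rose and 15.1% fell, against 15.6% and 18.3% of the 5043 without. The Abf1 motif occurred in 9 of 21 synthetase promoters (42.9%) and 4 of 17 factor promoters (23.5%), against 14.4% of all promoters. Of the 9 synthetase genes with these letters, MES1 and GLN4 fell and 7 did not pass, with a median of −0.26. The share that fell, 22.2%, stands beside 17.8% of all genes. The share among all genes with these letters was not computed. THS1 and GLN4 held the letters of both Gcn4 and Abf1.

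**Figure D4:**
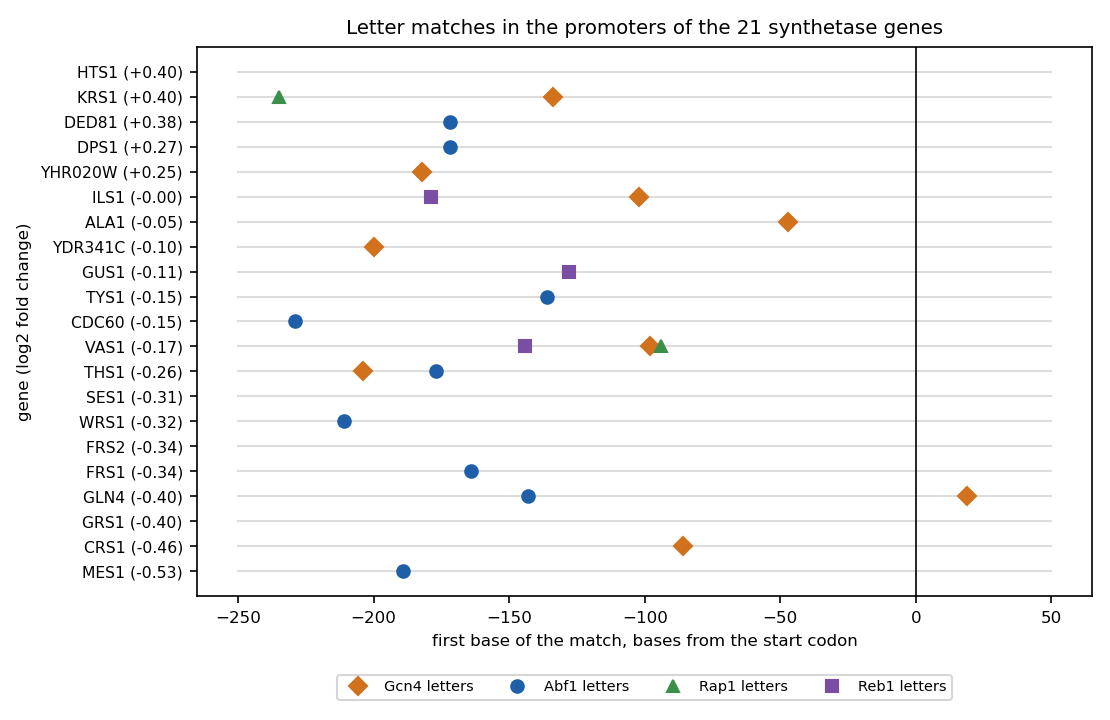
First base of each match to the letters of Gcn4, Abf1, Rap1 and Reb1 (symbols), in bases from the start codon at 0 (x axis), for the 21 synthetase genes ordered by log2 fold change, which is given beside each name. Gcn4 and Abf1 matches are spread from the top to the bottom of the order, between KRS1 at 0.40 and MES1 at −0.53.

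Other letters were searched on both strands in the same windows. The Rap1 motif occurred in KRS1 and VAS1, 2 of 21 (9.52%) against 1.03% of all promoters, and in VAS1 it overlaps the TGACTC match. TTACCCG (Reb1) occurred in 3 of 21 synthetase and 4 of 17 factor promoters (14.3% and 23.5%, against 7.08%), the latter being EFT1, CDC33, SUI2 and SUI3, none of which passed. TATAAA occurred in 9 of 21 and 9 of 17 (42.9% and 52.9%, against 45.2%), and in HTS1, TEF4 and CAM1 the only match lay inside the coding sequence. GCGATGAG (the PAC element) was in CRS1 and YDR341C, CACGTG (Cbf1) in SES1, TGTGGC (Met31/Met32) in GUS1 (inside the coding sequence) and TEF4, and CCCCT (the stress element) in FRS2. The shares over all promoters were 3.93%, 2.92%, 7.82% and 21.6%.

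The plot of all settings shows how far each value depends on the analysis. Of the 12 genes that passed, none turned its direction under any of 17 alternatives, 2 passed under all of them (CAM1 and EFB1) and 10 lost the call under at least 2. Of the 26 that did not pass, 9 passed under at least 1 alternative (DED81, FRS1, FRS2, SES1, WRS1, YHR020W, EFT1, EFT2 and CDC33) and 17 under none. Of these 26, 12 changed sign under at least 1 alternative, and none of those 12 passed under any.

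**Figure D5:**
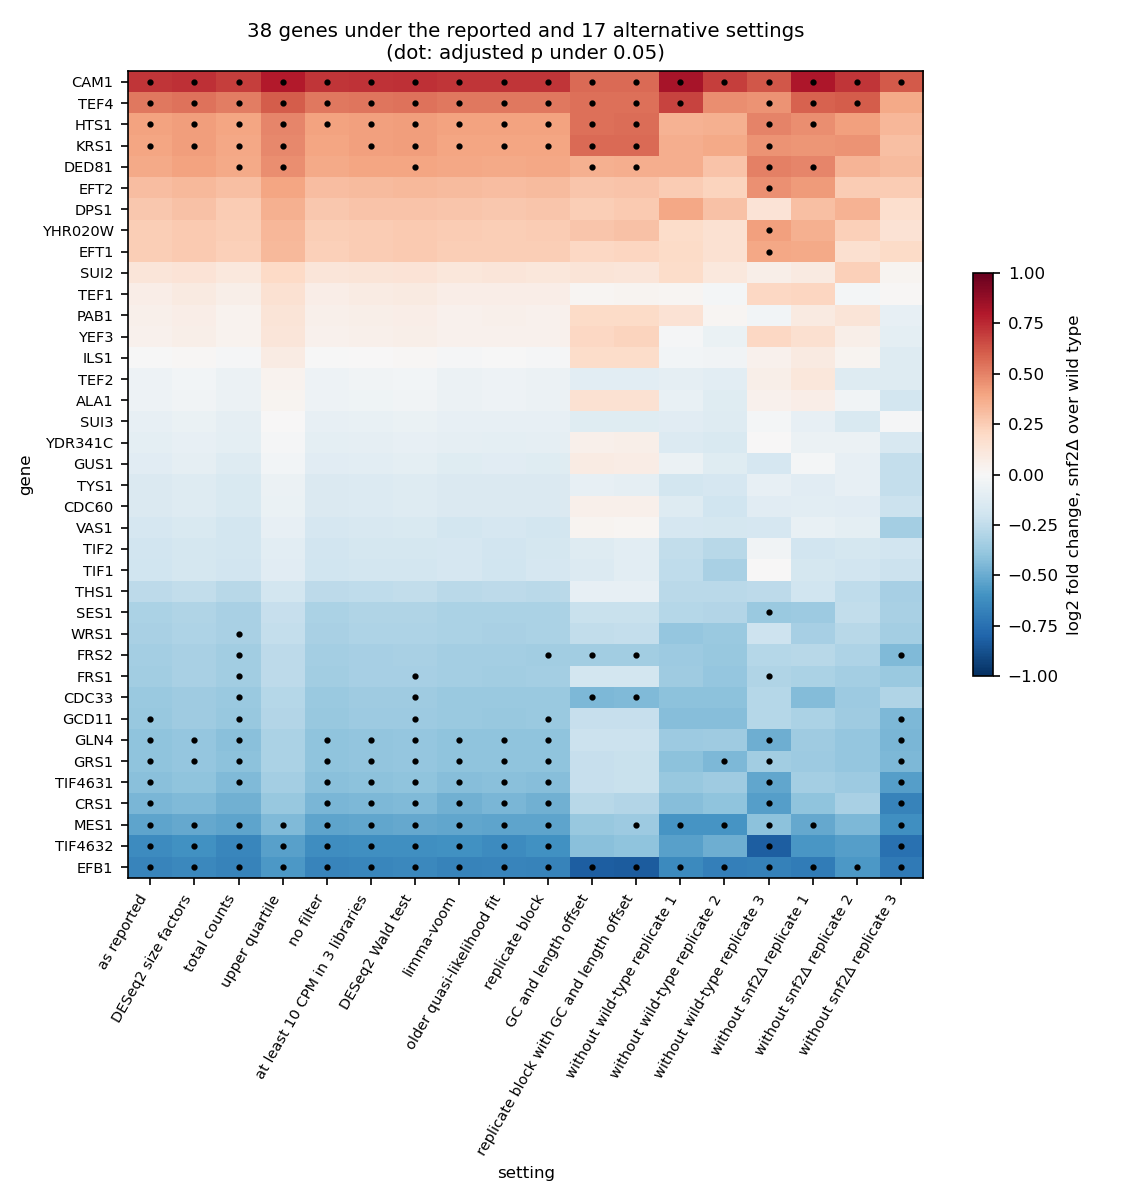
Log2 fold change (colour) of the 38 genes (rows, ordered by the reported value) under the reported setting and 17 alternatives (columns), with a dot where the adjusted p was under 0.05. Unbroken rows of dots occur only for CAM1 at the top and EFB1 at the bottom, and the columns that leave out a library hold fewer dots, except the one without wild-type replicate 3 and, at the bottom, the one without snf2Δ replicate 3.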

How the data were processed

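Poly(A)-selected RNA of 3 wild-type and 3 snf2Δ samples of HHY221 was sequenced. The labels describe hot phenol extraction, the study's methods a column kit. Reads were processed by the authors with bcl2fastq 2.18 and STAR 2.7.3a against sacCer3, and RSEM 1.3.0 was used for other values. The authors deposited raw counts per feature, whole numbers that were not normalized or pooled. Whether strand was used, and how reads matching several genes were counted, is not stated in the sources used here.

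Of 7127 features, 6047 matched the R64 RefSeq annotation. Groups were taken from the labels. Features kept by filterByExpr were tested in R 4.3.3 with edgeR 4.0.16 (TMM, glmQLFit, glmQLFTest, genotype only), with Benjamini-Hochberg adjustment over 5641 genes, SNF2 being left out of all counts of genes. A gene rose or fell where its adjusted p was under 0.05. SE is the size of the log2 fold change divided by the square root of F. Levels are CPM scaled by TMM. Ratios within pairs were compared by 2-sided exact permutation tests. Copies were searched with BLAST 2.17.0 and promoter letters on both strands of 6001 windows. Alternatives were other scalings and filters, DESeq2 1.42.0, limma-voom (limma 3.58.1), the legacy quasi-likelihood fit, a block for replicate number, a GC and length offset, both together, and each library left out. The procedure was tested on simulated data.

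The members, the related lists and the tests were chosen with earlier results of these data known. Values per library are given for members that passed, CRS1, MES1, copies, and up to 3 genes of each related list with the smallest adjusted p. Other members given by library (DED81, THS1, CDC33, PAB1, SUI2, SUI3 and YEF3) were added after their values were seen.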

Additional observations from a re-analysis of the deposited data

How the results depend on the processing

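As reported, 2 synthetases rose and 4 fell, and 2 factors rose and 4 fell, against 938 rising and 1003 falling genes. Without a filter, 1 synthetase rose. With DESeq2 size factors 2 factors fell. With upper-quartile scaling 1 synthetase and 2 factors fell, with the GC and length offset 1 and 2, and with the replicate block and that offset together 2 and 2. With 1 library left out, rising synthetases numbered 0 to 4, falling synthetases 0 to 6, rising factors 1 to 4 and falling factors 1 to 4, and genes 685 to 1185 rising and 730 to 1311 falling. Such fits hold fewer libraries. Correlations of same-numbered deviations were 0.155, −0.04 and 0.126, against −0.198 to 0.132 between samples of different number. With 3 samples per genotype these values cannot show whether the replicate numbers pair the samples. The replicate block gave 2 rising and 5 falling synthetases (FRS2 added), 2 and 4 factors, and no lost call. Over all genes it gave 986 rising and 1072 falling. For the following values that turned sign, none of which passed under any setting, the cause was not tested. With upper-quartile scaling ALA1 gave 0.031, ILS1 0.0782, TEF2 0.0349 and SUI3 0.0025. With the GC and length offset ALA1 gave 0.149, CDC60 0.0496, GUS1 0.0797, ILS1 0.183, VAS1 0.0254 and YDR341C 0.0499, and with the replicate block as well 0.156, 0.0545, 0.0764, 0.185, 0.0188 and 0.0598. ILS1 gave 0.0145 with DESeq2 size factors, 0.0056 with at least 10 CPM in 3 libraries and 0.013 with DESeq2. With 1 library left out, ALA1 ranged from −0.185 to 0.0648, ILS1 from −0.132 to 0.0917, YDR341C from −0.163 to 0.0041, TEF1 from −0.0181 to 0.211, TEF2 from −0.128 to 0.11, YEF3 from −0.0999 to 0.204, TIF1 from −0.327 to 0.0037 and PAB1 from −0.0803 to 0.144.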
